A study of Homo sapiens with 12 samples.

Results

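The sterol regulatory element binding protein (SREBP) module described here is a list of 37 genes of sterol synthesis, fatty acid synthesis and sterol export, found by gene symbol among the 29972 gene rows of each deposited table. It holds 18 enzymes of cholesterol synthesis, 5 regulators (SREBF1, SREBF2, SCAP, INSIG1 and INSIG2), 2 sterol transport genes (STARD4 and NPC1L1), 9 genes of fatty acid and lipid synthesis, and 3 genes of sterol efflux and receptor turnover that are targets of the liver X receptor (LXR). The list does not hold every gene of these pathways. RNA-seq was run on 2 triple-negative breast cancer cell lines of human origin, MDA-MB-436 and BoM-1833, the latter a line selected for growth in bone. Cells in DMEM with fetal calf serum were transfected in suspension with lipid-borne small interfering RNA (siRNA) at 5 nM in total and used 72 h later. The siNT groups received a non-targeting control pool, and the siPHF19 groups received 2 siRNAs against PHF19 mixed in equal parts. PHF19 encodes an accessory protein of the Polycomb repressive complex that methylates histone H3. Control pool and PHF19 siRNAs came from different suppliers, so an effect of the reagent and an effect of PHF19 loss cannot be told apart. There were 3 libraries for each of the 4 groups, which makes 12. The labels do not say that replicates were separate cultures, so p-values measure only the spread between these samples, which may be technical.

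SREBP proteins are made as membrane-bound precursors. When membrane sterol is low, the escort protein SCAP carries them from the endoplasmic reticulum to the Golgi, where proteases release the part that enters the nucleus. INSIG proteins hold SCAP back when sterol is plentiful. The product of SREBF2 is known mainly for driving sterol synthesis and uptake, and that of SREBF1 for driving fatty acid synthesis, whereas LXR is activated by oxidised sterols and drives export.

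The libraries held between 13.7 M and 24.0 M reads in genes. PHF19 fell to 9.75% of its siNT mean for MDA-MB-436 and 10.9% for BoM-1833. ATP6V1E1, a subunit of the proton pump that acidifies lysosomes, fell to 11.9% and 20.2% of its siNT mean in the same libraries; its part in the results below was not tested. The hormone receptor genes ESR1 and PGR had at most 3.97 normalized counts in any library, and the adipocyte marker ADIPOQ was at 0 in all 12. PLIN1, also an adipocyte marker, reached at most 18.9. The leukocyte marker CD3E was at 0, while PTPRC, also a leukocyte marker, was at 0 to 1.09 in MDA-MB-436 and at 14.9 to 21.2 in BoM-1833. The endothelial marker PECAM1 was at 13.1 to 34.9 in MDA-MB-436 and at 280 to 404 in BoM-1833, and CDH5 was at most 2.11. Of the 5 epithelial markers, KRT19 was at 0 to 1.09 in MDA-MB-436 and at 5228 or more in BoM-1833, and CDH1 was at most 27.6 in both lines. The keratins KRT8 and KRT18 were higher in all siPHF19 libraries of both lines. KRT8 ranged from 999 to 1109 in siNT and from 1626 to 1824 in siPHF19 of MDA-MB-436, and from 8550 to 9079 and 14071 to 14729 in BoM-1833. KRT18 ranged from 4735 to 5235 and 5934 to 6069, and from 7393 to 8374 and 10509 to 11035. EPCAM overlapped in MDA-MB-436 and was lower in siPHF19 of BoM-1833, where it went down to 85.4 and all 3 libraries lay below the siNT range of 109 to 138. Of the 3 mesenchymal markers, VIM was lower in all siPHF19 libraries, at 18097 to 18780 against 19093 to 20231 in MDA-MB-436 and at 62776 to 64632 against 69409 to 76715 in BoM-1833. SNAI2 was at 13.7 to 26.5 against 73.4 to 88.4 in MDA-MB-436 and overlapped in BoM-1833, and ZEB1 was higher in siPHF19 of MDA-MB-436, at 771 to 857 against 665 to 758, and overlapped in BoM-1833. The part of these markers in the results was not tested.

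Most sterol synthesis genes were higher after PHF19 siRNA in both lines, and none of the 18 enzymes was called lower. In MDA-MB-436, 22 of the 36 members that could be tested were called higher and 1 lower at an adjusted p under 0.05 in the authors' deposited table of DESeq2 results; over all 14243 genes tested, 10.5% were called higher and 11.5% lower. In BoM-1833, 23 of 36 members were called higher and 0 lower in the authors' deposited table, against 5.21% higher and 5.72% lower among 12906 genes tested. The BoM-1833 count was 15 without siNT replicate 2, 14 without siPHF19 replicate 2 and 14 without siPHF19 replicate 3. NPC1L1, a sterol importer of the gut, was the member without a test in either line, with at most 4.225 normalized counts in any library. The changes were small: the median log2 fold change of siPHF19 over siNT over the tested members was 0.34 for MDA-MB-436 and 0.23 for BoM-1833, and over all genes tested it was -0.0 for each line. In 26 of 36 members in MDA-MB-436 all siPHF19 libraries lay above all siNT libraries, against 21.1% of all genes tested, and in BoM-1833 the count was also 26 of 36, against 15.3%. The median of the sterol enzymes was 0.41 for MDA-MB-436 and 0.28 for BoM-1833, above 0.22 and 0.14 for the fatty acid branch. In these lines the regulators had medians of 0.27 and 0.14, and the 3 LXR-type genes -0.37 and 0.37. The sterol enzymes were thus above the LXR-type genes in MDA-MB-436 and below them in BoM-1833. STARD4, the tested sterol transport gene, stood at 0.75 and 0.29. No test of the difference between branches was made.

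**Figure D1:**
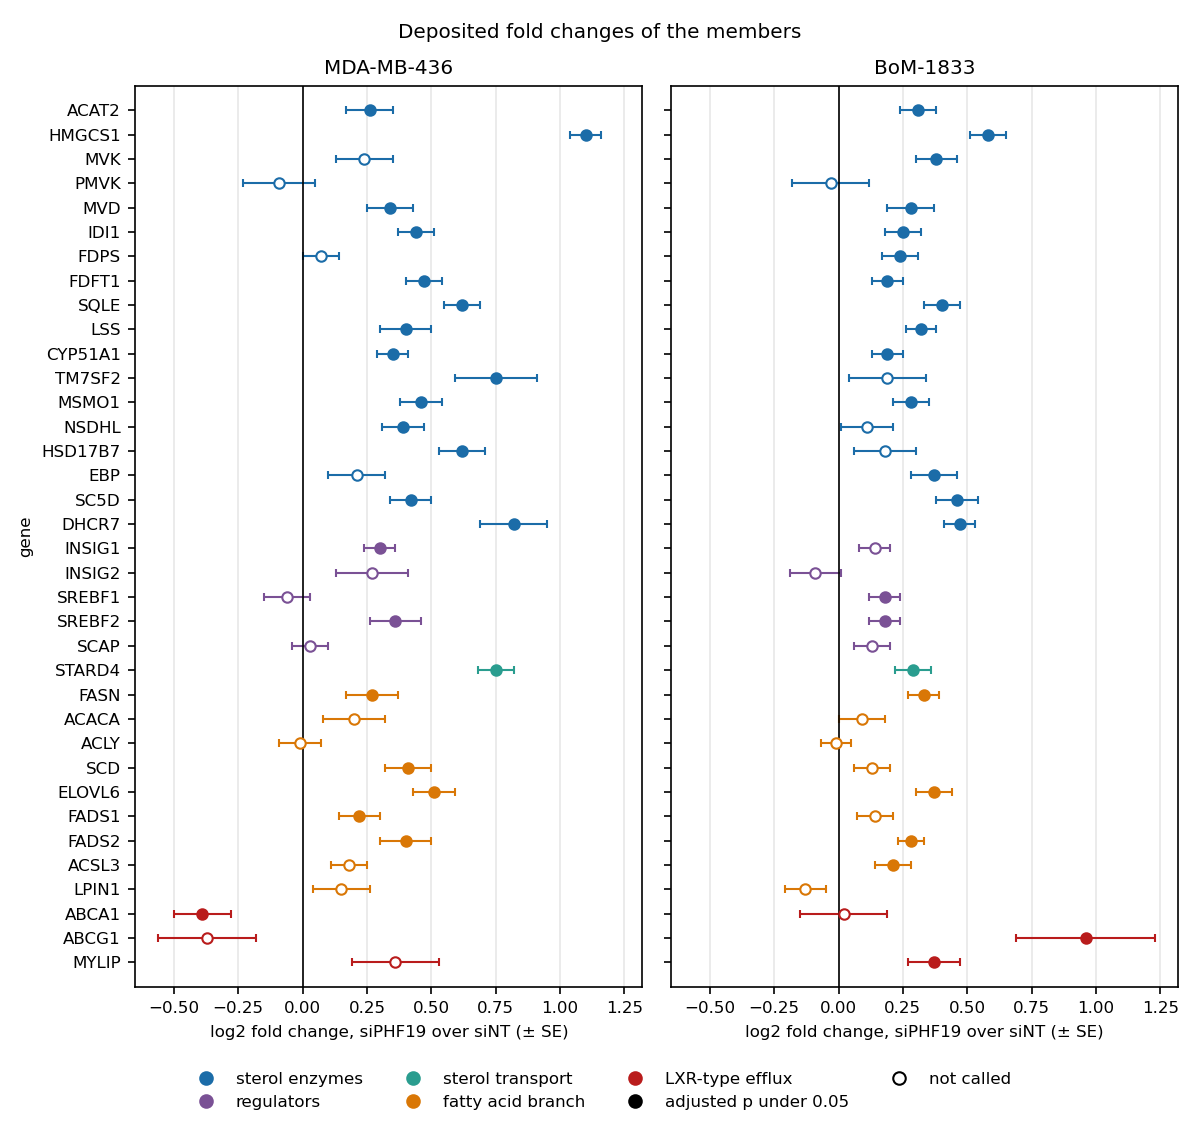
Log2 fold change of siPHF19 over siNT (x axis, ± SE) for the 36 tested members (y axis, in pathway order, coloured by branch) in MDA-MB-436 (left) and BoM-1833 (right), from the authors' deposited table; filled points have an adjusted p under 0.05. Among the sterol enzymes, 14 of 18 points are filled in each line, and HMGCS1 is farthest to the right of them in both.

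The early steps, from acetyl units to farnesyl diphosphate, included the sterol enzyme with the largest fold change in each line. HMGCS1, the cytosolic synthase that makes hydroxymethylglutaryl-CoA, lies at chr5:43289395-43313512 on the minus strand (GRCh38). In MDA-MB-436 its normalized counts were 3643, 3401 and 3554 in the siNT libraries and 7535, 7625 and 7485 in the siPHF19 libraries. In BoM-1833 they were 2303, 2542 and 2255 in siNT and 3509, 3463 and 3628 in siPHF19. The groups did not overlap in either line, and the siPHF19 mean was 2.14-fold and 1.49-fold the siNT mean. Log2 fold changes were 1.1 ± 0.06 (SE, adjusted p = 2.38e-70, DESeq2) and 0.58 ± 0.07 (adjusted p = 1.35e-15) as listed by the authors' deposited table. Of the 7 genes of these steps, 4 were called higher for MDA-MB-436 and 6 for BoM-1833. ACAT2, which joins acetyl-CoA units, MVD, the mevalonate diphosphate decarboxylase, and IDI1, the isopentenyl diphosphate isomerase, rose in both lines. The authors' deposited table lists log2 fold changes of 0.26, 0.34 and 0.44 for MDA-MB-436 and of 0.31, 0.28 and 0.25 for BoM-1833. Of 16 alternative fits, the ACAT2 call in MDA-MB-436 was lost in 4 (adjusted p up to 0.148, DESeq2), the MVD call in BoM-1833 in 5 (up to 0.234) and the IDI1 call in BoM-1833 in 3 (up to 0.117). MVK, the mevalonate kinase, and FDPS, the farnesyl diphosphate synthase, passed the test in BoM-1833 at 0.38 and 0.24, and stood at 0.24 and 0.07, not called, in the MDA-MB-436 rows of the authors' deposited table. The difference between lines was not called for either (adjusted p = 0.678 and 0.383, z test). The FDPS call was lost in 5 of 16 alternative fits, 4 of them with 1 library left out (adjusted p up to 0.136, DESeq2), and that of MVK in 0. PMVK, the next kinase, was the sterol enzyme that passed in neither line. Its siNT libraries spread from 621.3 to 985.6 normalized counts (MDA-MB-436) and from 375.3 to 567.6 (BoM-1833), wider than the distance between the group means.

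The 3 genes that take farnesyl diphosphate to lanosterol all rose in both lines. SQLE, the squalene epoxidase and a rate-controlling step, had 9748, 8588 and 8798 normalized counts in siNT and 13851, 13842 and 13966 in siPHF19 libraries of MDA-MB-436. In BoM-1833 its counts were 1065, 1096 and 1017 in siNT and 1387, 1415 and 1387 in siPHF19. The groups were apart in both lines, at 1.54-fold and 1.32-fold in the means. These are log2 fold changes of 0.62 ± 0.07 (SE, adjusted p = 7.62e-18, DESeq2) and 0.4 ± 0.07 (adjusted p = 4.77e-06) by the authors' deposited table. Log2 fold changes in MDA-MB-436 and then BoM-1833, from the authors' deposited table, were 0.47 and 0.19 for FDFT1, the squalene synthase, and 0.4 and 0.32 for LSS, the lanosterol synthase. The FDFT1 call in BoM-1833 (adjusted p = 0.0362, DESeq2, from the authors' deposited table) was lost in 8 of 16 alternative fits.

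Of the 8 genes from lanosterol to cholesterol, 7 were called higher for MDA-MB-436 and 5 for BoM-1833. DHCR7, the reductase of a final step (chr11:71428193-71452868, minus strand), had 1496, 1891 and 2278 normalized counts in siNT and 3504, 3154 and 3313 in siPHF19 libraries of MDA-MB-436. In BoM-1833 its counts were 2294, 2305 and 2424 in siNT and 3139, 3229 and 3376 in siPHF19. All siPHF19 libraries were above all siNT libraries in both lines, and siNT replicate 1 was the lowest in each. From the authors' deposited table its log2 fold changes were 0.82 ± 0.13 (SE, adjusted p = 3.7e-09, DESeq2) and 0.47 ± 0.06 (adjusted p = 1.55e-11). SC5D, a sterol desaturase, rose in each line, with log2 fold changes of 0.42 and 0.46 per the authors' deposited table. CYP51A1, the lanosterol demethylase, and MSMO1, the methylsterol oxidase, also rose in both lines, by 0.35 and 0.46 for MDA-MB-436 and by 0.19 and 0.28 for BoM-1833 per the authors' deposited table. TM7SF2, a sterol reductase, NSDHL, a sterol dehydrogenase, and HSD17B7, a keto-sterol reductase, passed in MDA-MB-436 at 0.75, 0.39 and 0.62, while the BoM-1833 values in the authors' deposited table were 0.19, 0.11 and 0.18, not called. The difference between lines was not called for these 3 (adjusted p = 0.137, 0.24 and 0.0618, z test). Of 17 alternatives of that test, HSD17B7 passed in 3, the DESeq2 and edgeR interaction fits among them, NSDHL in 2 and TM7SF2 in 1. EBP, the sterol isomerase, passed in BoM-1833 at 0.37 and stood at 0.21, not called, for MDA-MB-436 per the authors' deposited table (difference between lines adjusted p = 0.647, z test); its BoM-1833 call was lost in 2 of 16 alternative fits and that of CYP51A1 in 6. In BoM-1833 the count of 14 sterol enzymes called higher was 8 without siPHF19 replicate 2 and 9 without siPHF19 replicate 3. These fits have fewer samples, and their numbers over all genes are not given here.

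Among the regulators, SREBF2 rose in both lines, and the genes for SCAP and INSIG2 passed in neither. SREBF2 (chr22:41833079-41907308, plus strand) had 3460, 4260 and 4779 normalized counts in siNT and 5321, 5371 and 5293 in siPHF19 libraries of MDA-MB-436, with siNT replicate 1 lowest. In BoM-1833 its counts were 3761, 3953 and 4252 in siNT and 4567, 4464 and 4528 in siPHF19, so the groups were close but apart. Per the authors' deposited table its log2 fold changes were 0.36 ± 0.1 (SE, adjusted p = 0.00535, DESeq2) and 0.18 ± 0.06 (adjusted p = 0.0404). The BoM-1833 value was not called in 12 of 16 alternative fits, edgeR among them. SREBF1 did not pass in MDA-MB-436, at 1985, 2455 and 2380 normalized counts in siNT and 2245, 2184 and 2118 in siPHF19. The authors' deposited table calls it higher in BoM-1833 at 0.18 (adjusted p = 0.0453, DESeq2), a call lost in 13 of 16 alternative fits. INSIG1, an SREBP target as well as a brake on SREBP processing, rose by 0.3 for MDA-MB-436 (adjusted p = 8.43e-06, DESeq2) and stood at 0.14 for BoM-1833 (adjusted p = 0.144) per the authors' deposited table.

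STARD4, a cytosolic carrier that moves cholesterol between membranes, rose in both lines. It lies at chr5:111496033-111512590 on the minus strand. Its normalized counts in MDA-MB-436 were 1220, 1180 and 1197 in siNT and 2076, 2057 and 1911 in siPHF19. In BoM-1833 they were 2477, 2686 and 2699 in siNT and 3336, 3188 and 3057 in siPHF19. The groups were apart in both lines, by 1.68-fold and 1.22-fold. On the log2 scale the authors' deposited table has 0.75 ± 0.07 (SE, adjusted p = 1.82e-21, DESeq2) and 0.29 ± 0.07 (adjusted p = 0.000415).

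**Figure D2:**
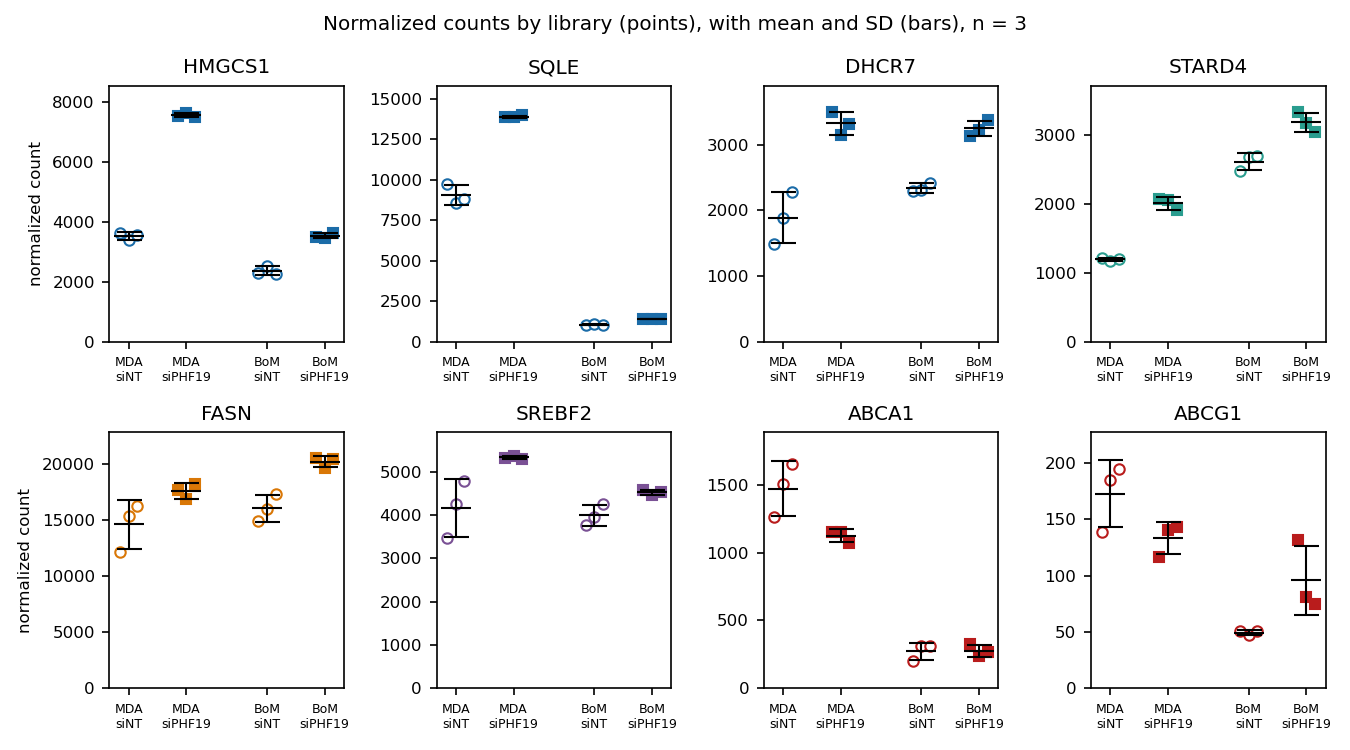
Normalized counts (y axis, starting at 0) of 8 members in each of the 12 libraries (x axis, by line and siRNA; open circles siNT, filled squares siPHF19), with mean and SD (n = 3); the lines were normalized separately. HMGCS1, SQLE, DHCR7 and STARD4 show no overlap between siNT and siPHF19 in either line, whereas ABCA1 in siPHF19 lies below siNT in MDA-MB-436 and overlaps it in BoM-1833, and ABCG1 lies above siNT in BoM-1833 and overlaps it in MDA-MB-436.

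The fatty acid branch moved less uniformly. FASN, the fatty acid synthase (chr17:82078333-82098332, minus strand), had 12176, 15379 and 16282 normalized counts in siNT and 17658, 16826 and 18238 in siPHF19 libraries of MDA-MB-436. In BoM-1833 its counts were 14880, 15946 and 17301 in siNT and 20523, 19642 and 20425 in siPHF19. The siPHF19 libraries were above the siNT libraries in both lines, and siNT replicate 1 was lowest in each. On the log2 scale these were 0.27 ± 0.1 (SE, adjusted p = 0.0404, DESeq2) and 0.33 ± 0.06 (adjusted p = 4.31e-06) by the authors' deposited table. The MDA-MB-436 call of FASN was lost in 10 of 16 alternative fits and its BoM-1833 call in 0. ELOVL6, which lengthens palmitate, and FADS2, a desaturase of polyunsaturated fatty acids, also rose in both lines, by 0.51 and 0.4 for MDA-MB-436 and by 0.37 and 0.28 for BoM-1833 per the authors' deposited table. SCD, the desaturase that makes oleate, rose at 0.41 for MDA-MB-436 (adjusted p = 3.01e-05, DESeq2) and stood at 0.13 for BoM-1833 (adjusted p = 0.238) per the authors' deposited table. The siNT counts of SCD in BoM-1833 ran from 36809 to 44428 and overlapped its siPHF19 counts of 42531 to 46354. ACSL3, which activates long-chain fatty acids, stood at 0.18 (not called) and 0.21 (adjusted p = 0.0285, DESeq2) per the authors' deposited table. The BoM-1833 call was lost in 7 of 16 alternative fits (adjusted p up to 0.233). ACLY, which makes cytosolic acetyl-CoA from citrate, ACACA, the carboxylase that commits acetyl-CoA to fatty acids, and LPIN1, a phosphatidate phosphatase, passed in neither line. ACLY was the flattest of these, at 7541, 8377 and 9022 normalized counts in siNT and 8289, 8081 and 8408 in siPHF19 of MDA-MB-436. Its log2 fold change was -0.01 for each line per the authors' deposited table.

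In MDA-MB-436, 5 of 9 genes of the fatty acid branch were called higher, against 10.5% of all genes tested, and in BoM-1833 4 of 9, against 5.21%. The MDA-MB-436 count was 3 without siNT replicate 2 and without each siPHF19 library in turn, and 8 without siNT replicate 3. FASN and FADS1, the desaturase beside FADS2, were the calls lost with edgeR after its count filter (adjusted p up to 0.18 and 0.198 over all alternatives). The siNT libraries of this branch were spread more than those of the sterol enzymes. As a geometric mean over the 9 genes relative to the siNT mean, the siNT libraries of MDA-MB-436 stood at 0.88, 1.013 and 1.104 and the siPHF19 libraries at 1.209, 1.193 and 1.184. In BoM-1833 the siNT libraries stood at 0.914, 1.01 and 1.074 and the siPHF19 libraries at 1.142, 1.101 and 1.103. The same measure over the 18 sterol enzymes ran from 0.969 to 1.021 in siNT and from 1.348 to 1.36 in siPHF19 of MDA-MB-436, and from 0.976 to 1.025 and 1.187 to 1.243 in BoM-1833. In both lines siNT replicate 1 was low for long transcripts, with slopes of -0.1153 and -0.0764 log2 units for each doubling of transcript length. The slopes of siNT replicate 3 had the other sign, at 0.0615 and 0.0633. Transcripts of this branch are 3630 to 9961 bases long, and those of the sterol enzymes 1190 to 4936. The part of transcript length in the spread of this branch was not tested. DESeq2 was also run with a length and GC factor for each library, a fit chosen after seeing the data. For this branch it called 5 of 9 genes higher for MDA-MB-436, the deposited count, and 6 of 9 for BoM-1833. Of the 18 sterol enzymes it called 17 higher for MDA-MB-436, against 14 as deposited. The BoM-1833 count of sterol enzymes stayed at 14.

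**Figure D3:**
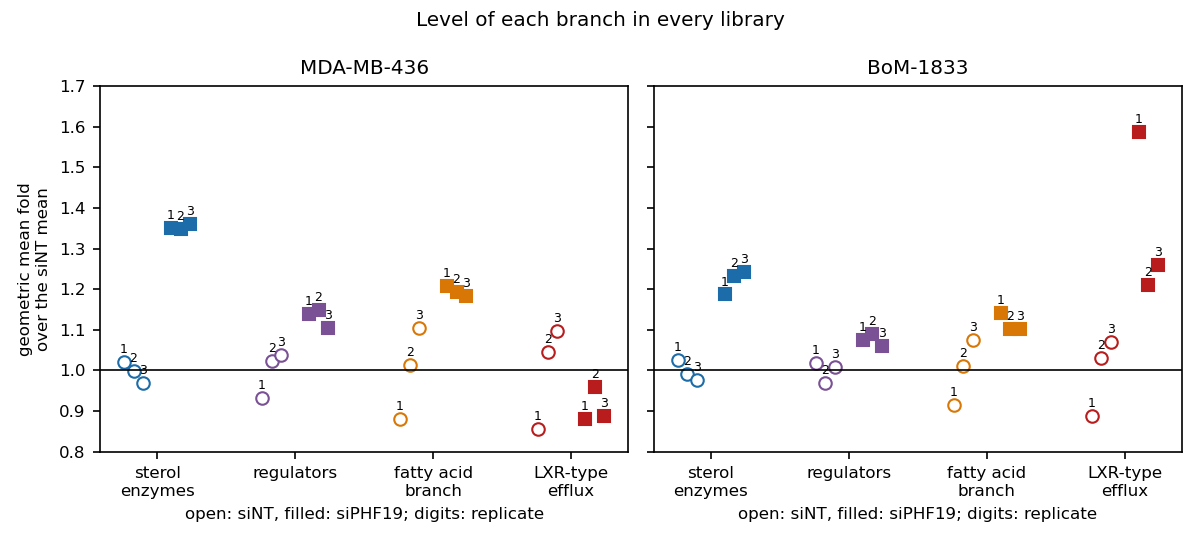
Geometric mean of the normalized counts of each branch in every library, as a fold of the siNT mean (y axis, not starting at 0). MDA-MB-436 is on the left and BoM-1833 on the right. Open circles are siNT and filled squares siPHF19. Digits are replicate numbers, and the labels do not say whether they pair samples. The sterol enzymes sit between 1.187 and 1.36 in all siPHF19 libraries. In both lines siNT replicate 1 lies lowest in the fatty acid branch and also in the LXR-type genes, at 0.855 and 0.887 in the latter.

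The LXR-type genes did not share a direction in MDA-MB-436, where 1 of 3 had a log2 fold change above 0. In BoM-1833 all 3 were above 0, with ABCA1 at 0.02. Of the 3, 0 were called higher and 1 lower for MDA-MB-436, and 2 higher and 0 lower for BoM-1833. ABCA1, which exports cholesterol to lipid-poor apolipoproteins (chr9:104781002-104928237, minus strand), had 1259, 1502 and 1655 normalized counts in siNT and 1150, 1150 and 1070 in siPHF19 libraries of MDA-MB-436. In BoM-1833 its counts were 201.6, 308.9 and 309.1 in siNT and 323.8, 238.3 and 264.3 in siPHF19. In MDA-MB-436 every siPHF19 library lay below every siNT library, and in BoM-1833 the groups overlapped. By the authors' deposited table the log2 fold changes were -0.39 ± 0.11 (SE, adjusted p = 0.00222, DESeq2) and 0.02 ± 0.17 (adjusted p = 0.978). The difference between lines, -0.41, was not called (adjusted p = 0.29, z test). ABCG1, which exports cholesterol to lipoprotein particles (chr21:42199689-42297244, plus strand), was scarce. It had 138.6, 184.5 and 194.4 normalized counts in siNT and 116.7, 140.8 and 142.6 in siPHF19 libraries of MDA-MB-436, where it was not called (adjusted p = 0.148, DESeq2, the authors' deposited table). In BoM-1833 its counts were 50.8, 47.03 and 50.56 in siNT and 131.1, 81.38 and 74.48 in siPHF19, and it was called higher at 0.96 ± 0.27 (SE, adjusted p = 0.00604, DESeq2, the authors' deposited table). That call rested on siPHF19 replicate 1, the highest library: without it the log2 fold change was 0.65 with an adjusted p of 0.246 (DESeq2). Without siNT replicate 2 its adjusted p was 0.0572 (DESeq2). MYLIP, a ubiquitin ligase that degrades lipoprotein receptors, stood at 0.36 for MDA-MB-436 (adjusted p = 0.107, DESeq2) and was called higher at 0.37 for BoM-1833 (adjusted p = 0.00308) per the authors' deposited table. In MDA-MB-436 it was called higher in 6 of 16 alternative fits, all edgeR and limma fits among them. It lost the BoM-1833 call without siPHF19 replicate 3 (adjusted p = 0.087, DESeq2).

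The lines were compared directly. Of the 36 members tested in both, 16 were called higher in both and 0 lower in both, 7 were called in MDA-MB-436 alone, 7 in BoM-1833 alone and 6 in neither. None was called in opposite directions. Over 12290 genes with a test in each line, the share called higher in both was 2.55% and that called lower in both 3.12%, with 17.4% in MDA-MB-436 alone, 4.72% in BoM-1833 alone, 71.9% in neither and 0.301% in opposite directions. A gene called in 1 line alone is not thereby different between lines, so the difference of the log2 fold changes was tested with a z test over 12290 genes, of which 4.89% were called. Of the members, 3 were called. HMGCS1 rose more in MDA-MB-436, by 0.52 (95% interval 0.34 to 0.69, adjusted p = 1.85e-06), and STARD4 by 0.46 (0.27 to 0.66, adjusted p = 0.000294). ABCG1 differed by -1.33 (-1.97 to -0.68, adjusted p = 0.00273), from -0.37, not called, for MDA-MB-436 and 0.96 for BoM-1833; without BoM-1833 siPHF19 replicate 1 this was -1.02 with an adjusted p of 0.0913. FDFT1 and HSD17B7 lay just outside, at 0.28 and 0.44 (adjusted p = 0.0545 and 0.0618), and FDFT1 passed in 6 of 17 alternatives. For FASN the difference was -0.07 (-0.3 to 0.17) and for SC5D -0.04 (-0.27 to 0.19). These intervals do not show an equal response: no margin was set, and the FASN log2 fold changes were themselves 0.27 and 0.33. The count of 3 became 7 without MDA-MB-436 siNT replicate 1, 6 without its siNT replicate 3 and 5 without BoM-1833 siNT replicate 1.

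**Figure D4:**
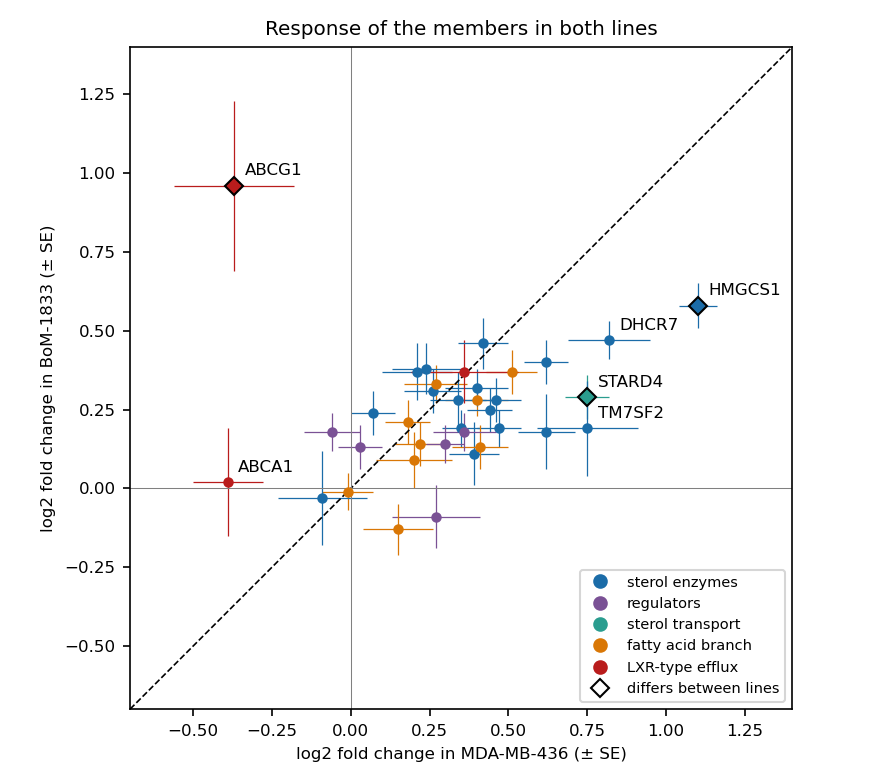
Log2 fold change of each tested member in BoM-1833 (y axis, ± SE) against MDA-MB-436 (x axis, ± SE), with equality as a dashed line; diamonds mark the 3 members whose difference between lines passed the z test. HMGCS1 and STARD4 lie below the dashed line and ABCG1 in the upper left.

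Levels of different genes were compared per kilobase of the longest annotated coding transcript, as normalized count per kilobase in siNT libraries. SCD was the most abundant member in each line, at 3936 for MDA-MB-436 and 7531 for BoM-1833. In MDA-MB-436 it was followed by FDPS at 3579, SQLE at 3055 and FDFT1 at 2511, and in BoM-1833 by FADS2 at 2642, ACLY at 2239 and FDPS at 2128. SQLE was at 357.7 in BoM-1833; the tables were normalized separately, so this sets its rank within the line and is no test between lines. ABCG1 and MYLIP had the lowest levels of the tested members in MDA-MB-436, at 49.64 and 49.36, and ABCG1 and ABCA1 in BoM-1833, at 14.23 and 26.04.

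Promoter sequence was examined because SREBP proteins act together with NF-Y, which binds CCAAT. RefSeq windows on GRCh38.p14, from 250 bases before to 50 after the first listed start, were matched for 32 of 37 members, all but ACAT2, FDFT1, SQLE, FASN and ABCG1. Searched on both strands, CCAAT was in 20 of 32 windows (62.5%), against 36.642% of 10578 genes tested in a line. It was in 12 of 15 sterol enzyme windows (80%) and in 3 of 8 windows of the fatty acid branch (37.5%). The sterol regulatory element TCACNCCAC was in 1 window, that of SREBF2, against 1.059% of all windows, the E-box CACGTG in 5 of 32 (9.983% of all) and the Sp1 box GGGCGG in 29 of 32 (69.9% of all). The windows below are those of 4 members that rose in both lines and hold CCAAT, and that of ACLY, which holds it and did not pass in either line. They were chosen after their values and matches were seen. IDI1, CYP51A1, ELOVL6 and FADS2 rose in both lines with no CCAAT in their windows, which are not printed. Each is printed 5′ to 3′ on the gene's strand, cut to bases before every annotated protein-coding exon in the window, with CCAAT (or ATTGG on the other strand) and TCACNCCAC in capitals: HMGCS1 at chr5:43313513-43313662, DHCR7 at chr11:71448436-71448635, STARD4 at chr5:111512591-111512785, SREBF2 at chr22:41832879-41833078 and ACLY at chr17:41919023-41919222. The windows of DHCR7 and ACLY lie inside the GENCODE spans of these genes, which begin further upstream than the first RefSeq start listed.
HMGCS1: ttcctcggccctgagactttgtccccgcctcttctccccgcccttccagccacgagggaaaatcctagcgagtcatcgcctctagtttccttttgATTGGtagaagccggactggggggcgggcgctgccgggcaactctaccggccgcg
DHCR7: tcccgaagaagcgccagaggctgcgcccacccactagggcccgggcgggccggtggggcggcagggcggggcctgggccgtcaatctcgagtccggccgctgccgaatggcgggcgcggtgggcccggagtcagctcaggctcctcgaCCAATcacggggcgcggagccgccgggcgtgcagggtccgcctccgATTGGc
STARD4: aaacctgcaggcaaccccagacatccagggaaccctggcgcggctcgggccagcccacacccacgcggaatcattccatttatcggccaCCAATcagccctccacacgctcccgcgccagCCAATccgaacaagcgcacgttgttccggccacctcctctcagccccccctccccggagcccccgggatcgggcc
SREBF2: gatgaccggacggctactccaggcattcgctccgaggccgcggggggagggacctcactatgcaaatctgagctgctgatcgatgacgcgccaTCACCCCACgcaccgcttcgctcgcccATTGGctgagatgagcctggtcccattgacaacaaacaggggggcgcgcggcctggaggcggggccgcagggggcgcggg
ACLY: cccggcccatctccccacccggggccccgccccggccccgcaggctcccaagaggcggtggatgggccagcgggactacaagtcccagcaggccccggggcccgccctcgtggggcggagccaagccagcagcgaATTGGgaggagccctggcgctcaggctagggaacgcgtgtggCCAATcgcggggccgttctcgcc

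HMGCS1 had CCAAT matches from -155 to -151 and from -100 to -96, the latter beyond the printed stretch, and SREBF2 had its sterol regulatory element from -133 to -125 with CCAAT from -106 to -102. STARD4 and DHCR7 held 2 CCAAT matches each, as did ACLY. A match is a description of letters and not of binding, and the match in ACLY went with a log2 fold change of -0.01 for each line per the authors' deposited table.

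Further genes of the pathway were counted from lists that partly extend the module. For comparison, 10.5% of all genes tested were called higher and 11.5% lower for MDA-MB-436, and 5.21% and 5.72% for BoM-1833. Of 15 isoprenoid and other sterol branch genes, 3 were called higher and 1 lower for MDA-MB-436 and 1 higher for BoM-1833. TMEM97, a sterol-binding membrane protein, was the gene higher in both lines, at 0.77 and 0.53 per the authors' deposited table. Of 14 genes of SREBP processing and degradation, 4 were higher for MDA-MB-436 and 1 was lower for BoM-1833. LPIN2 was among both, at 0.49 and -0.33 per the authors' deposited table. Of 24 tested genes of other fatty acid and lipid synthesis, 9 were higher and 4 lower for MDA-MB-436, and 4 higher and 3 lower for BoM-1833. ACSS2, which makes acetyl-CoA from acetate, SLC25A1, the citrate carrier, and ELOVL5, an elongase, were higher in both lines, at 0.81, 0.41 and 0.44 for MDA-MB-436 and 0.44, 0.29 and 0.24 for BoM-1833 per the authors' deposited table. ACSL4, which activates arachidonate, and SCD5, another stearoyl desaturase, were lower in both, at -0.94 and -0.75 for MDA-MB-436 and -0.45 and -0.53 for BoM-1833 per the authors' deposited table. Of 13 tested genes of sterol storage, lysosomal release and transport, 3 were higher and 1 lower for MDA-MB-436, and 2 higher and 1 lower for BoM-1833. LIPA, the lysosomal acid lipase, and NPC2, the lysosomal sterol carrier, were higher in both, at 0.54 and 0.25 for MDA-MB-436 and 0.69 and 0.39 for BoM-1833 per the authors' deposited table. Of 9 tested genes of the LXR axis, 1 was higher and 2 lower for MDA-MB-436 and 1 higher for BoM-1833. LPCAT3, a phospholipid acyltransferase, was higher in both, at 0.55 and 0.41 per the authors' deposited table. The list medians lay between -0.12 and 0.17 in all cases, against 0.41 and 0.28 for the sterol enzymes.

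Some members share sequence or position with other genes, and the strand setting of the counting is not given in the sources used here. FDPS has 8 annotated pseudogenes, CYP51A1 3 and HSD17B7 2, among which reads may be split. ACAT2 overlaps TCP1 and SOD2 on the other strand, MVK overlaps MMAB, TM7SF2 overlaps VPS51 on the same strand, and FADS1 and FADS2 overlap each other.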

How the data were processed

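Messenger RNA libraries of 12 samples were analysed from 2 tables, with groups and replicate numbers taken from sample titles. Per the submitters' processing notes, STAR, RSEM 1.3.1 and DESeq2 1.46.0 were used on hg38; the annotation and strand setting are not given in the sources used here. The deposited library values are a signal, read counts divided by a size factor. The deposited fold changes are on the log2 scale, the deposited Wald statistic is a score, and the deposited p-values and adjusted p-values are the authors' own. Whole reads were recovered from all library columns (100% of values within 0.05 of a whole number), and DESeq2 1.42.0 on them gave the deposited 3143 and 1411 calls. No per-sample column lacked a sample (0).

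A gene was called at a deposited adjusted p under 0.05. The line difference was tested by z, the difference of both fold changes divided by its standard error (the squared errors summed), with Benjamini-Hochberg adjustment over 12290 genes. Alternatives used DESeq2, edgeR 4.0.16 and limma 3.58.1 (R 4.3.3), other thresholds and filters, a replicate block, a common fit and each library left out. The DESeq2, edgeR, limma and z tests were also run on reads simulated from the means and dispersions of these data, with outcomes not reported here. Named genes are all members, PHF19, ATP6V1E1 and genes of 5 further lists called in both lines; LPIN2 was named after its values were seen. Other genes of these lists are counted and not named. Members, lists and tests were chosen with earlier results of these data known. Gene positions and transcript lengths are from GENCODE v29 on GRCh38, and promoter windows are from RefSeq. Depth was 13.7 M to 24.0 M reads per library, without molecular identifiers.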

Additional observations from a re-analysis of the deposited data

Results flagged for a closer look

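3 members responded differently in the lines by the z test on the authors' deposited table, adjusted over 12290 genes. HMGCS1 differed by 0.52 log2 units and STARD4 by 0.46, both more raised in MDA-MB-436. ABCG1 differed by -1.33, from -0.37 (not called) for MDA-MB-436 and 0.96 for BoM-1833, at 14.23 normalized counts per kilobase in siNT of BoM-1833. HMGCS1 and STARD4 were called in all 17 alternatives of that test, and ABCG1 in 15 of the 16 in which it was tested; without BoM-1833 siPHF19 replicate 1 its difference was -1.02 (adjusted p = 0.0913, z test).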

How the results depend on the processing

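Direction was kept by every called member under every alternative, and 9 members (HMGCS1, SQLE, LSS, MSMO1, SC5D, DHCR7, STARD4, ELOVL6 and FADS2) were called in both lines in each of 16 alternative fits at an adjusted p under 0.05. The DESeq2 refit on recovered reads is counted among the 16 here and above. It repeats the deposited calls and could not lose any. Requiring an absolute log2 fold change of 0.5 left 7 members in MDA-MB-436 (7 higher, 5 sterol enzymes, 1 of the fatty acid branch). In BoM-1833 it left 2 (2 higher, 1 sterol enzyme, 0 of the fatty acid branch). Over all genes tested in MDA-MB-436 the number called also fell at this threshold, so its member count is to be read against that fall. The BoM-1833 number over all genes at this threshold is not given here. Whether members stayed in excess of all genes at this threshold was not tested in either line. The fatty acid count for MDA-MB-436, 5 as deposited, was 3 with edgeR under TMM and under median-of-ratios factors, with limma at a pseudocount of 1 or 10, with DESeq2 without independent filtering and at an adjusted p under 0.01.

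The labels do not say whether replicate numbers pair the samples. Same-numbered siNT and siPHF19 libraries deviated with correlations of -0.23, 0.04 and -0.27 (MDA-MB-436) and -0.31, -0.12 and -0.2 (BoM-1833). These values cannot decide it, because trends of whole libraries, such as that with transcript length, enter them. With the replicate block, DESeq2 called 12 members in BoM-1833 (12 higher, 8 sterol enzymes) and 3 of the fatty acid branch in MDA-MB-436. The number called over all genes tested in MDA-MB-436 also fell with the block. The BoM-1833 number over all genes with the block is not given here. A loss particular to the members of that line therefore cannot be told from a general loss of calls.

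With each library left out, members called in BoM-1833 ranged from 14 to 24, those higher from 14 to 23, its sterol enzymes from 8 to 14, and the MDA-MB-436 fatty acid count from 3 to 8; these fits have fewer samples. Members that differed between lines ranged from 2 to 7, and were 5 with the DESeq2 interaction, 5 with the edgeR interaction and 9 with length and GC factors, a fit chosen after seeing the data; the cause was not tested. SREBF1, SREBF2, FDFT1 and CYP51A1, at 0.18 to 0.19 in BoM-1833, lost their calls in 13, 12, 8 and 6 of 16 fits. ABCG1 in BoM-1833 was between 47.03 and 131.1 normalized counts.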
